A study of Mus musculus with 2 samples.

Results

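The nuclei described here are liver nuclei that carried transcripts of endothelial genes and no detected transcript of 3 genes of the liver sinusoid. They were chosen by a gate on unique molecular identifiers (UMIs), the counted transcript molecules of each nucleus. A nucleus needed at least 2000 UMIs, at most 5% of them from mitochondrial genes, at least 4 UMIs over Flt1, Kdr, Ptprb, Pecam1 and Egfl7, and 0 UMIs of Stab2, Lyve1 and Clec4g. Cyp7b1, Abcb11 and Arg1 together had to stay under 10 per 10000 UMIs, and Pkhd1 at or under 4 UMIs. Of 17169 barcodes in the matrix, 9632 met the limits on UMIs and mitochondrial share, and 591 of these met the whole gate, which is 6.14% (exact 95% interval 5.66 to 6.63). The gate was set on measured values, so the 8 endothelial and sinusoidal genes in it are not results, and all contrasts below are descriptions without a test.

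The tissue was frozen mouse liver with hepatocellular carcinoma (HCC), from which an area of residual tumour had been microdissected. Its 2 samples belong to 1 group, and the labels give no strain, age, sex or treatment. Nuclear RNA was measured with 10x Genomics 3' droplet libraries. All barcodes carry the same suffix and none names its sample, so the matrix was treated as 1 pooled sample with no replicate.

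Liver endothelium differs by vessel. Sinusoidal endothelium is fenestrated, lacks a continuous basement membrane and clears macromolecules from blood through scavenger receptors such as Stab2 and Mrc1. Central vein endothelium supplies Wnt2, Wnt9b and Rspo3, which set the zonation of the hepatocytes around it. Growing vessels are led by tip cells, which respond to VEGF, express genes such as Esm1, Apln and Angpt2, and lay down collagen IV and laminins.

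The label was checked on 18 endothelial genes outside the gate, among them Cdh5, Erg, Emcn, Tie1 and Cdh13. Members held a median of 22 UMIs of these genes (quartiles 2 and 37.5), and 80 of the 591 held none. The nuclei just inside the gate carried few of them. The 78 nuclei with 4 gate UMIs held a median of 1 UMI and 27 held none, while the 99 otherwise qualifying nuclei with 3 gate UMIs, just outside, also held a median of 1 and 48 held none. The 382 members with 10 or more gate UMIs held a median of 31, and 9 held none. On the sinusoidal side, 97 nuclei had exactly 1 UMI of Stab2, Lyve1 and Clec4g and were placed in neither group. A droplet of free RNA, with 672 UMIs on average in barcodes not called as nuclei, held 0.0531 UMIs of these 3 genes and 0.229 UMIs of the 5 gate endothelial genes.

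Clustering of the members, with all gate and vessel marker genes held out, gave 8 clusters. Clusters 1, 3, 4 and 7 were set apart by the rule that every nucleus held at least 1 of the 18 endothelial transcripts. That none of their nuclei lacked one follows from the rule and is not a result. These 343 nuclei made up 58.0% of the members (53.9 to 62.1), and 0 of them were called doublets. The other 248 nuclei, in clusters 2, 5, 6 and 8, held fewer endothelial transcripts, with a median of 0 in cluster 2, 2 in cluster 5, 12 in cluster 6 and 10 in cluster 8, and carried 13 doublet calls. At least 5 such transcripts were found in all 343 nuclei of the 4 clusters and in 3, 7, 35 and 23 nuclei of clusters 2, 5, 6 and 8, so endothelial transcripts at that level were not confined to the 4 clusters. Their median depth was 6235.5 UMIs, against 3861 UMIs in clusters 1, 3, 4 and 7. The label therefore holds for a part of the members by these 18 genes, the same that chose the 4 clusters. Both parts are given below by cluster. The split into these 4 clusters was made after the data were seen.

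**Figure D1:**
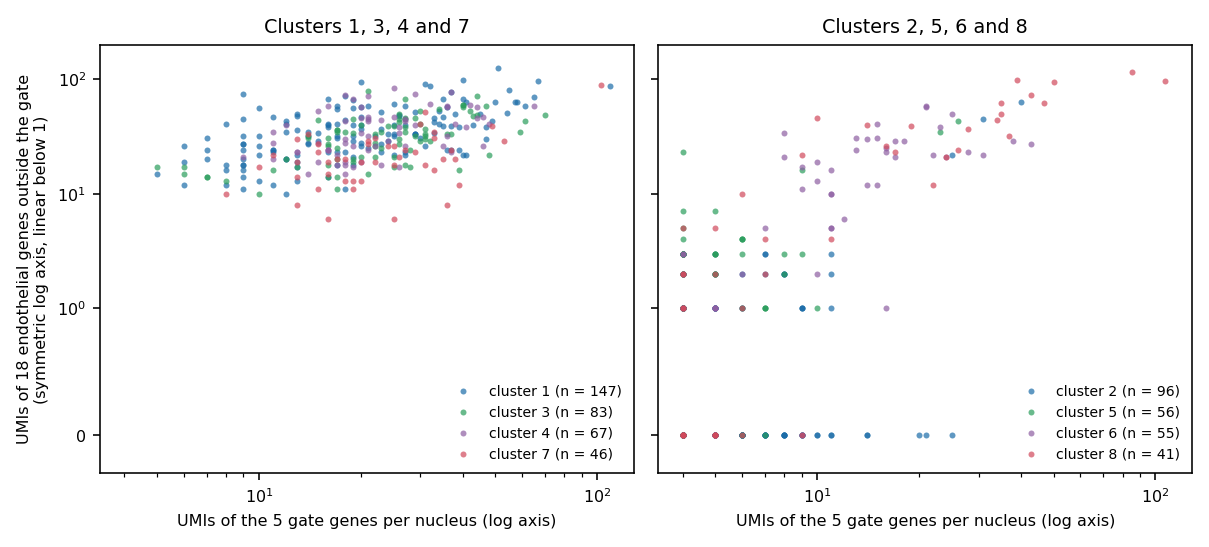
Each point is 1 of the 591 members, placed by its UMIs of the 5 gate genes (x, log axis) and of the 18 endothelial genes outside the gate (y, symmetric log axis). Every nucleus of clusters 1, 3, 4 and 7 (left) lies above 0, which was the rule that chose them. Of clusters 2, 5, 6 and 8 (right), 80 nuclei lie at 0.

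Cluster 2 (96 nuclei, 16.2% of members) expressed tumour epithelium genes. It had 686 CPM (UMIs of a gene per 1000000 UMIs of the group) of Hmga2, an oncofetal chromatin protein, against 28.2 CPM in the sinusoidal cluster defined below. Its nuclei held a median of 0 of the 18 endothelial transcripts, and 55 of 96 held none. Flt1, which encodes VEGF receptor 1, was detected in 95 of the 96 nuclei with 594 UMIs in all, against 61 UMIs of Ptprb, 46 of Pecam1, 15 of Egfl7 and 5 of Kdr. Most gate UMIs of cluster 2 were thus of 1 gene. In cluster 1 the same 5 genes, in that order, had 1594, 505, 652, 508 and 199 UMIs.

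Cluster 5 (56 nuclei, 9.48%) was fibroblast-like and met all 10 fibroblast markers. It also met 7 of 10 stellate cell markers and 6 of 11 pericyte and smooth muscle markers. Cluster 5 had 1667 CPM of the laminin chain Lama2 and 1462 CPM of the collagen Col5a2. These stood at 14.1 and 65.9 CPM in the sinusoidal cluster. Cluster 8 (41 nuclei, 6.94%) met 9 of 10 stellate cell markers. It also met 8 of 10 macrophage, 6 of 8 Kupffer cell and 6 of 8 T cell markers. It held 854 CPM of the stellate cell glycoprotein Reln and 659.5 CPM of Ptprc (CD45), and a median of 10 of the 18 endothelial transcripts. Cluster 6 (55 nuclei, 9.31%) had no leading lineage, and each of its 5 leading genes outside the predicted loci, Npl, Nucb1, Tas1r1, Rxfp1 and Cnppd1, had at least 50% of its UMIs in a single nucleus. Its nuclei held a median of 12 of the 18 endothelial transcripts (quartiles 1 and 24.5), 7 of 55 held none, and 0 of the 18 genes were at least 2-fold above the other members. It was set apart from the 4 clusters because of the nuclei with none.

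**Figure D2:**
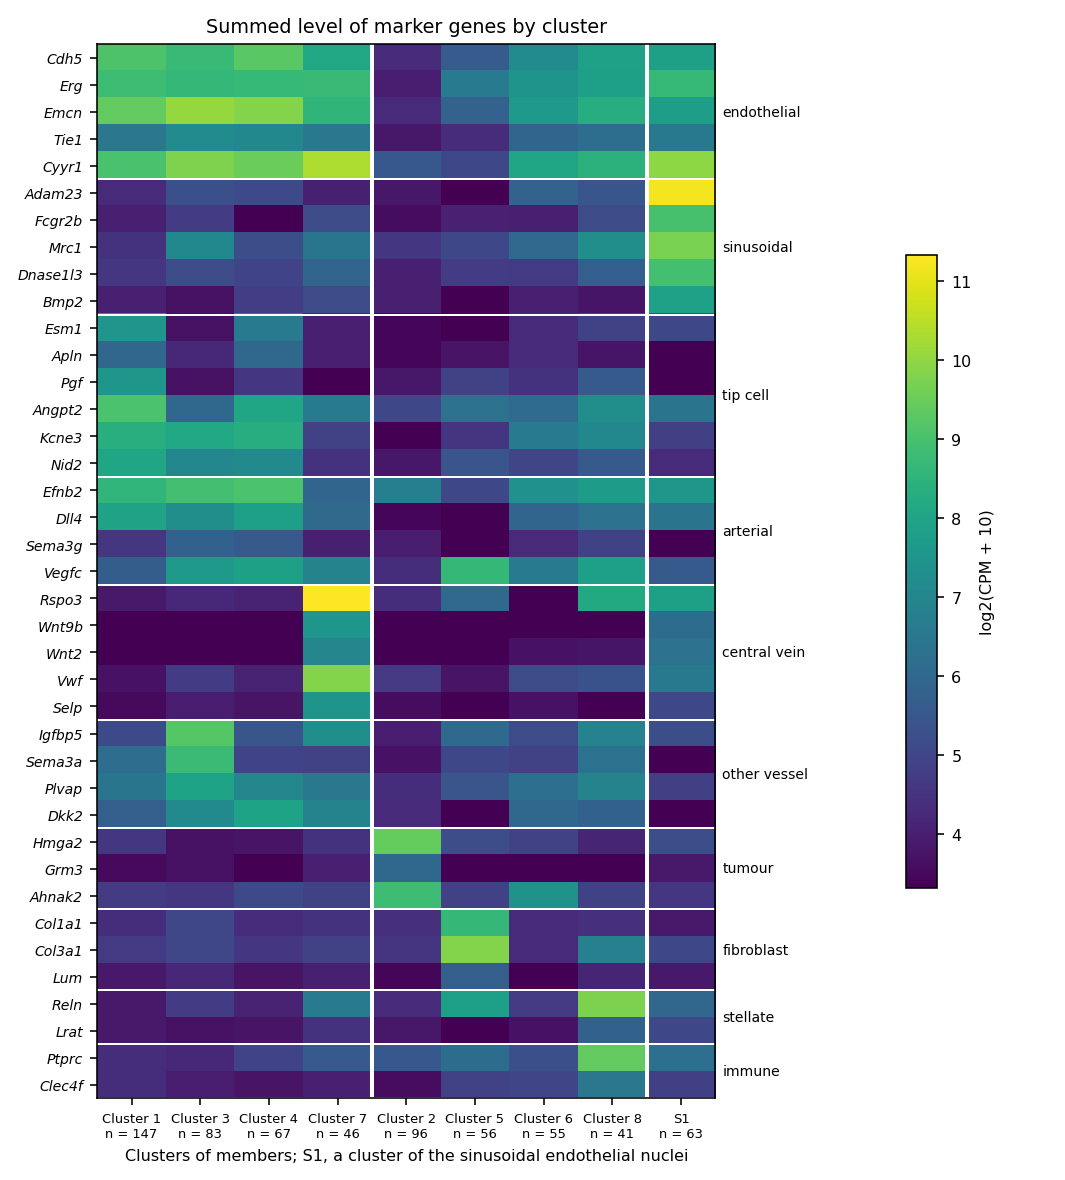
Rows are marker genes, columns are the 8 clusters of members and S1, and colour gives the summed level as log2(CPM + 10). Hmga2 is high in cluster 2, Col1a1 in cluster 5, Reln in cluster 8, Esm1 and Pgf in cluster 1 and Rspo3 in cluster 7.

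Over all 591 members, endothelial genes stood far above the 7346 nuclei with 0 or 1 gate UMI. All 18 endothelial genes outside the gate were at least 2-fold higher on the log2(CPM + 10) scale, with a median difference of 3.49. Of 17685 genes compared, each with at least 30 UMIs in both groups together, 1047 (5.92%) were that much higher. Cdh13, which encodes T-cadherin, had 1284 CPM in members and 5.59 CPM in the other nuclei, 229.8-fold higher (206 to 257). Mecom, a transcription factor gene of arterial endothelium, had 1100.2 and 3.78 CPM in the same order, 291-fold higher (255 to 334). Emcn, the sialomucin endomucin, had 396 and 3.07 CPM, 129-fold higher (110.5 to 151). Intervals in brackets are exact 95% Poisson intervals and cover counting error only. The remaining genes with the highest ratios were Ldb2, Ptprm, D5Ertd615e, Csgalnact1, Ccser1, Fbxl7, Cyyr1, Adgrl4, Hdac9, Arhgap31, Prkch and Lama4, detected in 293 to 452 members. After each nucleus was thinned to 2000 UMIs, Cdh13 was detected in 56.0% of members (51.9 to 60.1) and in 1.48% of the other nuclei, against 60.1% and 4.03% unthinned. Median depth before thinning was 4499 UMIs in members and 5629.5 UMIs in the other nuclei.

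The closest comparison is with sinusoidal endothelial nuclei, which met the same gate except that they held at least 2 UMIs of Stab2, Lyve1 and Clec4g (210 nuclei, median 4974 UMIs). These too fell into clusters of unlike content. The largest, called S1 here, had 63 nuclei and at least 1 of the 18 endothelial transcripts in every nucleus. It held 3947 CPM of Stab2 and 555 CPM of Clec4g, which are gate genes and no check of its type. Another carried 452 CPM of Clec4f, a Kupffer cell lectin, against 18.8 CPM in S1. Clusters S3 (37 nuclei) and S5 (22 nuclei) also held endothelial transcripts in every nucleus. S3 had 1517 CPM of Cdh13 and 462 CPM of Angpt2, against 89.4 and 75.3 CPM in S1. S5 had 472 CPM of Igfbp5, against 28.2 CPM in S1. Clusters 1, 3, 4 and 7 were set against S1 alone, the largest. The contrasts of these genes below are thus with a sinusoidal cluster low in them. The choice of S1 was made after the data were seen. Its median depth was 3092 UMIs, and its leading genes against the other sinusoidal nuclei included Cd55, Ehd3, Fam124a, Adam23 and F8.

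Cluster 1 (147 nuclei, 24.9% of members) was angiogenic and tip cell-like, with 16 of 20 markers of that list. Pgf, a VEGF receptor 1 ligand, had 179 CPM (148 to 215) in cluster 1 and 0 in S1, where the floor of 3 counts is 14.1 CPM. Angpt2, a TIE2 ligand that loosens vessels, had 527 CPM (473 to 586) in cluster 1 and 75.3 CPM (43.0 to 122) in S1. Esm1, a secreted proteoglycan of tip cells, had 169.6 CPM (139 to 204) in cluster 1 and 23.5 CPM (7.64 to 54.9) in S1. The intervals of Angpt2 and Esm1 in cluster 1 and S1 did not overlap, and that of Pgf lay above the floor of S1. Cluster 7 was low in all 3 genes, at 0, 89.4 and 6.39 CPM. Against S1, 16 of 18 compared genes of the list were at least 2-fold higher in cluster 1, with a median log2 difference of 2.76, where 12.2% of all 5272 genes compared were that much higher.

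The upstream sequences of 3 tip cell genes are shown because the genes were high together in cluster 1 and in cluster 4. Availability also bore on the choice, since no upstream sequence was found for Angpt2, Rspo3, Vwf, Cdh5 and Cdh13. Each is the 250 bases before the most upstream start site of the gene, from RefSeq on GRCm38.p6, given 5' to 3' along the gene's strand. Capitals mark CNGGAAG or its reverse complement CTTCCNG, a core that ETS factors such as Erg can bind. Esm1 lies at chr13:113209409-113209658 (plus strand), Apln at chrX:48034854-48035103 (minus strand) and Kcne3 at chr7:100176420-100176669 (plus strand).
Esm1: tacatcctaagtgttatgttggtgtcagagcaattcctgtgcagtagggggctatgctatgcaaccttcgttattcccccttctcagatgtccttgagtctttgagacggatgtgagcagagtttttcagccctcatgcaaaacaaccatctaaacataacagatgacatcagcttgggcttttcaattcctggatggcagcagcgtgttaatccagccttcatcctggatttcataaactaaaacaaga
Apln: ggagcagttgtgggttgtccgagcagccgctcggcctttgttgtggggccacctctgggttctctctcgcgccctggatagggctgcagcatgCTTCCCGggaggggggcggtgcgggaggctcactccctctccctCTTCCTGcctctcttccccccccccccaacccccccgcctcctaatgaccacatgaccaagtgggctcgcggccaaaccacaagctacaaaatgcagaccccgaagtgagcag
Kcne3: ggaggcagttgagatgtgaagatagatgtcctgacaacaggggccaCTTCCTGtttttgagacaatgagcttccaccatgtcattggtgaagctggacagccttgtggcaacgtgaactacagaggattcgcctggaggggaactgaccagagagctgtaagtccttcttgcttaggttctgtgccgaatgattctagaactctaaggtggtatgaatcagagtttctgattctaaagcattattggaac
The motif was found 0 times upstream of Esm1, 2 times upstream of Apln and 1 time upstream of Kcne3, each time on the opposite strand. Of 32817 mouse promoter windows of this length, 26.6% hold it on either strand. Apln, the ligand of the apelin receptor, had 52.4 CPM in cluster 1, 55.2 in cluster 4, 8.52 in cluster 3, 6.39 in cluster 7 and 0 in S1. Kcne3, a potassium channel subunit, had 322 CPM in cluster 1, 307 in cluster 4, 269.9 in cluster 3, 19.2 in cluster 7 and 18.8 in S1. Apln was thus low in clusters 3 and 7, whereas Kcne3 was low in cluster 7 alone among the 4.

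Share of nuclei with a transcript followed the levels. Thinned to 2000 UMIs, Esm1 was detected in 23.1% of cluster 1 nuclei (16.6 to 30.8) and in 6.35% of S1 nuclei, Pgf in 25.2% (18.4 to 33.0) and 0%, and Angpt2 in 46.9% (38.7 to 55.3) and 12.7%. Unthinned, Esm1 was detected in 29.9% of cluster 1 nuclei and 7.94% of S1 nuclei. In the non-endothelial nuclei the thinned shares were 0.204%, 0.272% and 3.53%. The detection in cluster 1 exceeded that background for all 3 genes.

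Among its leading genes against the other 3 clusters were Dach1, a transcription cofactor, at 776 CPM in cluster 1 and 34.1, 86.3 and 38.3 CPM in clusters 3, 4 and 7, and Nox4, an NADPH oxidase, at 789 CPM and 93.8, 307 and 19.2 CPM. These genes defined the cluster and are given as a description. Egln3, a hypoxia-induced prolyl hydroxylase, had 188 CPM in cluster 1 and 4.70 CPM in S1.

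**Figure D3:**
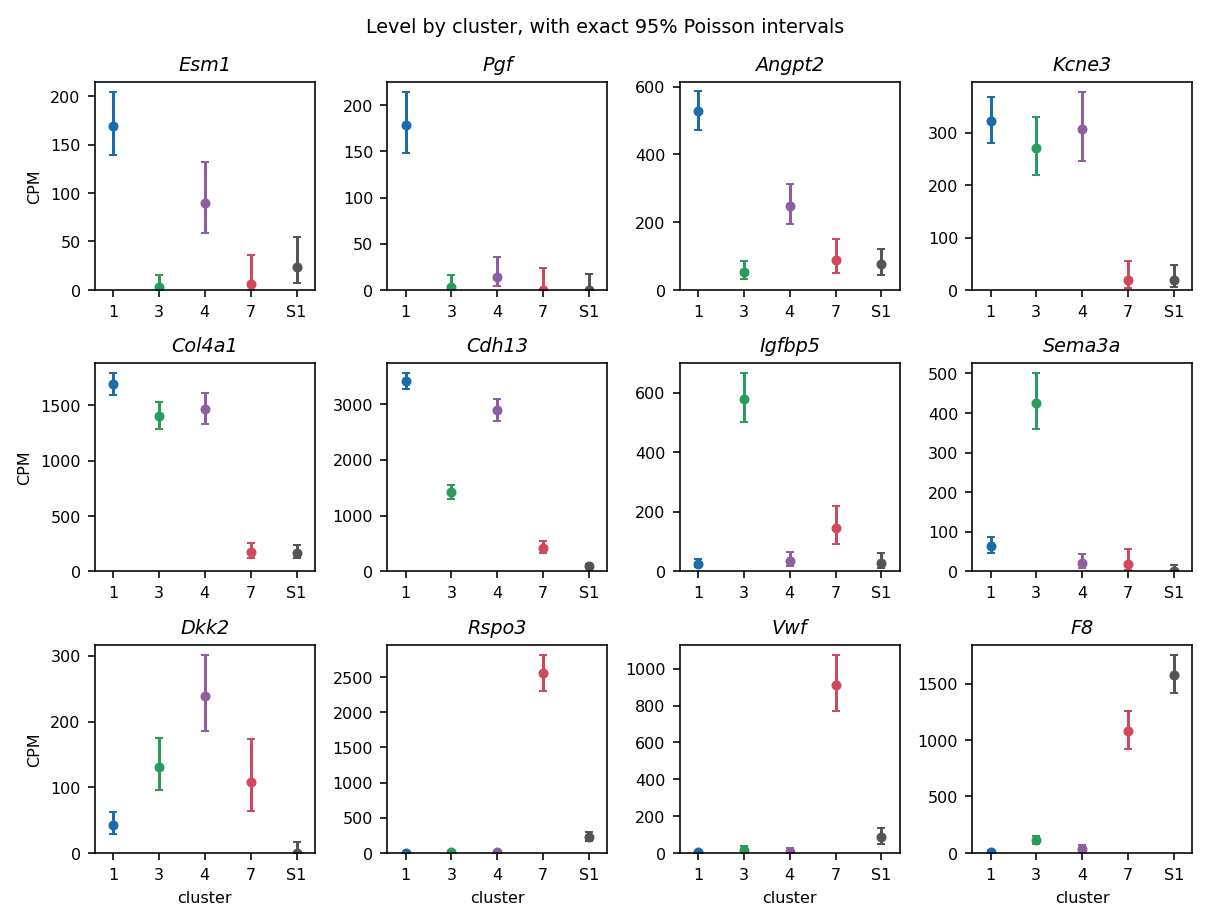
Each panel shows 1 gene, with its summed level in CPM (y) in clusters 1, 3, 4, 7 and S1 (x) and exact 95% Poisson intervals, which cover counting error only. Esm1, Pgf and Angpt2 peak in cluster 1, Igfbp5 and Sema3a in cluster 3, Rspo3 and Vwf in cluster 7, and F8 in S1 and cluster 7.

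Cluster 7 (46 nuclei, 7.78% of members) was central vein-like, with 11 of 15 markers of the venous list. Rspo3, a Wnt pathway amplifier, had 2555 CPM (2311 to 2818) in cluster 7, against 226 CPM (166 to 299) in S1, and 4.63 to 8.52 CPM in clusters 1, 3 and 4. Vwf, which encodes von Willebrand factor, had 913 CPM (769.8 to 1076) in cluster 7 and 84.7 CPM (50.2 to 134) in S1. The Wnt ligand Wnt9b had 172 CPM (114 to 251) in cluster 7 and 61.2 CPM (32.6 to 105) in S1, and Wnt2 had 115 CPM (68.1 to 182) and 70.6 CPM (39.5 to 116) in the same order. Clusters 1, 3 and 4 held no UMI of either Wnt gene. For Rspo3, Vwf and Wnt9b the intervals of cluster 7 and S1 did not overlap, and for Wnt2 they did.

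Cluster 7 also carried genes of sinusoidal endothelium. Coagulation factor F8 had 1079 CPM in cluster 7 and 1576 CPM in S1, against 12.3, 111 and 38.0 CPM in clusters 1, 3 and 4. Gata4, a transcription factor of sinusoidal identity, had 645 CPM in cluster 7 and 621 CPM in S1, and 9.25 CPM in cluster 1. The scavenger receptor genes differed, with 76.6 CPM of Mrc1 in cluster 7 and 833 CPM in S1, but 447 and 414 CPM of Stab1. Adam23 had 6.39 CPM in cluster 7 and 2315 CPM in S1. Of 12 compared sinusoidal genes outside the gate, 9 were at least 2-fold lower in cluster 7 than in S1, where 5.04% of all 2836 genes compared were. Rspo3 was detected in 36 of the 46 nuclei of cluster 7, or 78.3% after thinning (63.6 to 89.1), and in 5.28% of the non-endothelial nuclei. Slit2, a guidance ligand found in 9 members, had 339 CPM in cluster 7, 80.0 CPM in S1 and 0 in clusters 1, 3 and 4.

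Cluster 3 (83 nuclei, 14.0% of members) was left unnamed, with 3 to 5 markers of each of 5 vessel lists. The largest share was of the continuous capillary list (5 of 12: Gpihbp1, Ly6c1, Cd300lg, Btnl9 and Aqp1), but 0 of these were among its 10 leading genes. Igfbp5, an insulin-like growth factor binding protein, had 579.6 CPM in cluster 3 and 28.2 CPM in S1, and Sema3a, a repulsive guidance ligand, had 426 CPM in cluster 3 and 0 in S1. Plvap, which forms the diaphragms of fenestrae and caveolae, had 239 CPM (190.4 to 295) in cluster 3, 75.6 in cluster 1, 121 in cluster 4, 83.0 in cluster 7 and 18.8 in S1. Insr, the insulin receptor, had 2614 CPM in cluster 3 and 1162 CPM in S1, and Ednrb, an endothelin receptor, had 869 and 118 CPM. Adamts5, a matrix protease, had 625 CPM in cluster 3 and 0 in S1. Each of these genes was higher in cluster 3 than in S1. Against S1, 9 of 13 compared tip cell genes were at least 2-fold higher and 1 was lower, where 10.8% of 3989 genes compared were that much higher and 8.17% lower.

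Cluster 4 (67 nuclei, 11.3% of members) was also left unnamed, with 7 of 16 arterial, 8 of 20 tip cell and 5 of 12 continuous capillary markers. Dkk2, a secreted Wnt modulator, had 238 CPM (185 to 301) in cluster 4, 43.2, 131 and 109 CPM in clusters 1, 3 and 7, and 0 in S1. Dkk2 was detected in 38 members. Vegfc, the VEGF receptor 3 ligand, had 224 CPM in cluster 4 and 37.6 CPM in S1. Few genes set this cluster apart from clusters 1, 3 and 7 together: 32 of 7126 genes compared (0.449%) were at least 2-fold higher, against 2.12%, 1.57% and 6.34% for clusters 1, 3 and 7. All 5 compared arterial genes were at least 2-fold higher in cluster 4 than in S1, where 12% of 3609 genes compared were.

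The gate removed nuclei with a UMI of Lyve1, which lymphatic endothelium also expresses, so lymphatic nuclei with one were not members. In clusters 1, 3, 4 and 7 at most 1 of 11 lymphatic markers was met. Ccl21a was at 0 UMIs, and Prox1 stood at 41.5 CPM there and at 42.3 CPM in S1. Of 8 compared continuous capillary genes 2 were higher than in S1 (Rgcc and Ly6c1) and 2 lower (Cd36 and Cd300lg), while Car4 and Aqp7 were at 0. Gpihbp1, the lipoprotein lipase anchor of capillaries, had 199 CPM in the 4 clusters and 136 CPM in S1. In 1446698 UMIs a count of 0 allows up to 2.07 CPM at the floor of 3 counts.

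The 343 nuclei of clusters 1, 3, 4 and 7 together had 827 of 7726 genes (10.7%) at least 2-fold higher than S1 and 458 (5.93%) at least 2-fold lower, and the median gene differed by -0.01 on the log2 scale. The gene lists are given in the order of their roles, and their counts are to be read beside these shares over all genes. Because absence of Stab2, Lyve1 and Clec4g chose the nuclei, the counts of sinusoidal genes follow in part from the choice and are given as a description.

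Sinusoidal genes outside the gate were lower in 10 of 13 compared and higher in 0, with a median log2 difference of -3.61. Adam23, which encodes an integrin-binding disintegrin, had 16.6 CPM in the 4 clusters and 2315 CPM in S1, 139.5-fold lower (92.7 to 219.9). Fcgr2b, the inhibitory Fc receptor of sinusoids, had 9.68 and 503 CPM, 52.0-fold lower (29.7 to 98.4). Mrc1, the mannose receptor, had 49.1 and 833 CPM, 17.0-fold lower (12.8 to 22.7). Among ligands, Bmp2, which induces hepcidin in hepatocytes, had 9.68 and 231 CPM, 23.8-fold lower (12.9 to 46.7), and hepatocyte growth factor Hgf had 15.2 and 395 CPM, 26.0-fold lower (16.1 to 43.7). Macrophage markers summed to 124 CPM in the 4 clusters and 978 CPM in S1, a sum that includes Mrc1. Ptprc had 22 UMIs in the 4 clusters and 14 UMIs in S1, which holds far fewer UMIs in all. On the log2(CPM + 10) scale Ptprc was thus lower in the 4 clusters, with a difference of -1.59. By cluster the macrophage sum ran from 81.7 CPM in cluster 1 to 199 CPM in cluster 3. Kupffer markers summed to 49.8 CPM in the 4 clusters and 80.0 CPM in S1, with no UMI of Marco in S1. The hepatocyte markers, which free RNA carries, summed to 9512 and 14842 CPM, and their part in the differences was not tested.

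Tip cell genes were higher in 15 of 18 compared and lower in 0, with a median of 2.46 (2.24 with the 3 genes at 0 in S1 set at their bound). Their summed level was 7480 CPM in the 4 clusters and 2564 CPM in S1. Kcne3 was 14.5-fold higher (5.64 to 53.7), Angpt2 4.11-fold higher (2.50 to 7.24) and Esm1 4.06-fold higher (1.70 to 12.7). Pgf, with 121 UMIs in the 4 clusters and 0 in S1, was at least 5.93-fold higher. The chemokine receptor Cxcr4 had 78 UMIs and 0 in S1, at least 3.82-fold higher. With all sinusoidal nuclei in place of S1 the list's median was 1.36. In nuclei with at most 1% mitochondrial UMIs the difference of Angpt2 was 0.37 on the log2 scale, against 1.90 in all nuclei. All 5 stood higher in the 4 clusters, and cluster 7 had no called gene of this list against S1 (0 of 6 compared, where 5.54% of all genes compared were higher).

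Basement membrane and matrix genes were higher in 11 of 20 compared and lower in 1 (Fbn1), with a median of 1.19. The collagen IV chains Col4a1 and Col4a2 had 1415 and 1136 CPM in the 4 clusters, against 169 and 141 CPM in S1, and Col4a1 was 8.36-fold higher (6.01 to 12.0). The laminin chains Lamb1 and Lamc1 had 239.9 and 507 CPM, against 14.1 and 80.0 CPM. Nid2, which bridges laminin and collagen IV, had 169 CPM, against 9.41 CPM. Col4a1 was high in clusters 1, 3 and 4, at 1693, 1406 and 1471 CPM, and in cluster 7 it stood at 179 CPM, near S1. Against S1, 10 of 14 compared matrix genes were at least 2-fold higher in cluster 1, 10 of 15 in cluster 3, 9 of 12 in cluster 4 and 4 of 11 in cluster 7, and 0 were lower in each. Fbn1, which encodes fibrillin, had 300.2 CPM in cluster 7 and 2.84 to 7.71 CPM in clusters 1, 3 and 4.

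Notch and arterial genes were set beside all 7726 genes compared, of which 10.7% were higher than S1 and 5.93% lower. At that lower share, 0 lower in lists this short says little. Of 10 compared Notch genes 6 were higher and 0 lower, with a median of 1.06: Notch4, Dll1, Dll4, Jag2, Hes1 and Nrarp. Of 11 arterial genes 7 were higher and 0 lower, with a median of 1.23 (1.11 with the 2 genes at 0 in 1 group at their bound). The ligand Dll4, which restrains tip cell fate in neighbouring cells, had 189 CPM in the 4 clusters and 75.3 CPM in S1, 2.52-fold higher (1.52 to 4.46). The endothelial receptor Notch4 had 223 and 47.0 CPM, 4.75-fold higher (2.55 to 9.99), and the target gene Hes1 had 174 and 70.6 CPM, 2.46-fold higher (1.46 to 4.46). The arterial ephrin Efnb2 had 397 CPM in the 4 clusters, 179 CPM in S1 and 51.1 CPM in cluster 7. Nuclei that held 2 or more UMIs over the markers of immune, mural and stellate cells and fibroblasts were then left out. This left 54 of the 343 nuclei and 9 of the 63 of S1. The log2 difference of Hes1 was then -0.95 and that of Dll4 0.10. These markers include Ebf1 and Abcc9, which were higher in the 4 clusters than in S1, and Hgf, which was higher in S1. How far such genes account for the nuclei left out was not tested. The arterial connexins Gja4 and Gja5 had 7 and 8 UMIs in the 4 clusters, under the count needed.

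Receptors and ligands of the other pathways were mixed. Among VEGF receptors and neuropilins 2 of 6 were higher and 0 lower, and the neuropilin Nrp1 had 664 CPM in the 4 clusters and 1115 CPM in S1. BMP and TGF-beta genes had 6 of 18 higher and 5 lower: the type I receptor Acvrl1 (ALK1) had 84 UMIs in the 4 clusters and 0 in S1, at least 4.11-fold higher, the effector Smad1 had 713 and 155 CPM, and the ligand Bmp6 had 42.9 and 358 CPM. Wnt and R-spondin genes had 1 of 12 higher (Dkk2) and 2 lower (Wnt2 and Wnt9b), and the target gene Axin2 was at 1 UMI in the 4 clusters and 1 UMI in S1. The pathway lists thus held genes on both sides of S1.

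Transcription factor genes were higher in 7 of 23 (Sox7, Mef2c, Tcf4, Bcl6b, Meox1, Mecom and Prdm1) and lower in 3 (Gata4, Klf4 and Maf). Erg, the ETS factor of all endothelium, differed little, at 420.3 CPM in the 4 clusters and 399.9 CPM in S1, a ratio of 1.05 (0.836 to 1.33). Mecom had 2065 and 319.9 CPM, 6.45-fold higher (5.08 to 8.33). Tcf4, a helix-loop-helix factor gene, had 3856 and 1171 CPM, 3.29-fold higher (2.90 to 3.75). Gata4 and Maf, both known from sinusoidal endothelium, had 85.0 and 234 CPM in the 4 clusters, against 621 and 1153 CPM in S1.

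Junction genes were higher in 7 of 16 and lower in 1. Cdh13 was 27.9-fold higher (17.9 to 46.5), with 3408, 1421, 2886 and 428 CPM in clusters 1, 3, 4 and 7. VE-cadherin Cdh5 had 491 CPM in the 4 clusters and 226 CPM in S1, 2.17-fold higher (1.62 to 2.98), and Cd34, a sialomucin absent from most sinusoids, had 159 and 14.1 CPM, 11.3-fold higher (3.81 to 55.0). The junctional adhesion molecule Jam2 had 252 CPM in the 4 clusters and 569 CPM in S1, with 1175 CPM in cluster 7 alone. In the same reduced set of nuclei its log2 difference was 0.86, against -1.14 in all. Guidance genes had 8 of 20 higher and 2 lower, among them the Slit receptor Robo1 at 1329 and 428 CPM and the semaphorin Sema6d at 1293 and 254 CPM.

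Secreted factors divided in 2 directions. Of 22 angiocrine genes 8 were higher (Angpt2, Pdgfb, Ccn1, Dll4, Kitl, Igfbp3, Igfbp5 and Esm1) and 5 lower (Hgf, Wnt2, Wnt9b, Bmp2 and Bmp6). Pdgfb, which recruits pericytes, had 159 CPM in the 4 clusters and 14.1 CPM in S1, 11.3-fold higher (3.81 to 55.0), and the KIT ligand Kitl had 397 and 32.9 CPM, 12.1-fold higher (5.82 to 30.2). Igfbp3 had 1559 and 80.0 CPM, 19.5-fold higher (12.1 to 33.5). Among 13 coagulation and vasoactive genes 5 were higher and 3 lower: endothelial nitric oxide synthase Nos3 had 139.6 and 23.5 CPM, 5.94-fold higher (2.50 to 18.5), and F8 had 157 and 1576 CPM, 10.0-fold lower (8.46 to 11.9). Caveolin Cav1 had 168 and 18.8 CPM, 8.93-fold higher (3.44 to 33.0).

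The lipid list had called genes on both sides, and the called genes of the hypoxia list were higher. Over all 7726 genes compared, 10.7% were higher and 5.93% lower, beside which counts in lists this short say little. The fatty acid binding protein Fabp4 had 241 CPM in the 4 clusters and 18.8 CPM in S1, 12.8-fold higher (4.95 to 47.2). The fatty acid translocase Cd36 had 24.2 and 339 CPM, 14.0-fold lower (9.22 to 21.6). The lipid list as a whole had 1 of 15 higher and 3 lower, with a median of 0.01. Hypoxia genes had 3 of 10 higher (Egln3, the glucose transporter Slc2a1 and Ankrd37) and 0 lower, with a median of -0.04. Egln3 had 104 CPM in the 4 clusters and 4.70 CPM in S1, 22.0-fold higher (3.90 to 876). Of 20 cell cycle genes 4 had enough UMIs to compare, and 0 of these were called. Of 14 interferon and antigen presentation genes 1 (H2-Aa) was higher and 0 lower. Of 5 endothelial to mesenchymal genes the intermediate filament gene Vim was higher, at 266 CPM in the 4 clusters and 80.0 CPM in S1, and the repressor gene Zeb2 and N-cadherin gene Cdh2 were lower, Zeb2 at 174 and 828 CPM.

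**Figure D4:**
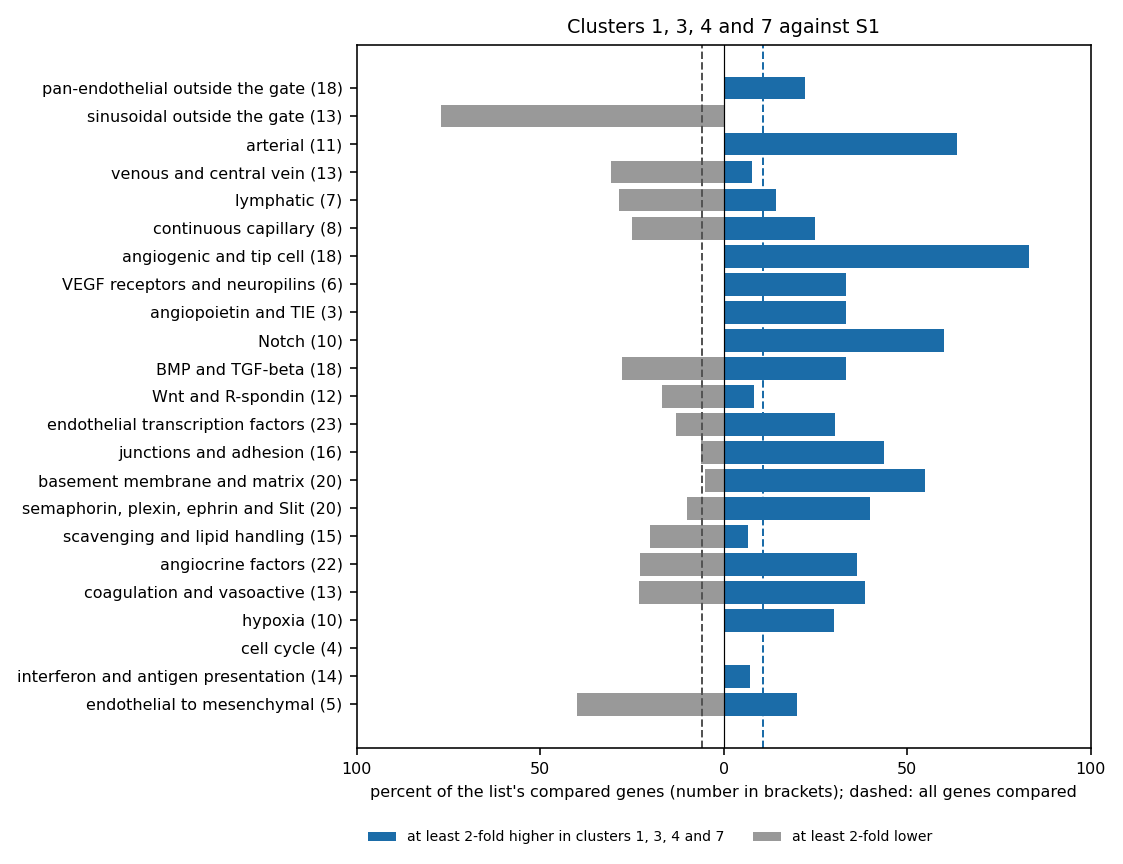
Bars give, for each list, the percent of compared genes at least 2-fold higher (right) and at least 2-fold lower (left) in clusters 1, 3, 4 and 7 than in S1, and dashed lines give the percent over all genes compared. The tip cell list has 15 of 18 genes higher, and the sinusoidal list, which the gate bears on, 10 of 13 lower.

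Over all genes, those with the highest ratios to S1 were D5Ertd615e, Ccser1, Ephb1, Nav3, St8sia4, Piezo2, Cdh13, Adamts5, Elmo1, Arhgef28, Igfbp3, Nox4, Celf4, Glis3 and Mgat4a. Piezo2, a mechanosensitive channel, had 671 CPM in the 4 clusters and 14.1 CPM in S1, 47.6-fold higher (16.2 to 231), with 3 UMIs in S1. The receptor tyrosine kinase Ephb1 had 584 CPM in the 4 clusters and 4.70 CPM in S1, 124-fold higher (22.2 to 4909.8), with 1 UMI in S1. The genes with the lowest ratios were Adam23, Fcgr2b, Ppfia2, Rerg, Plxnc1, Fam124a, Hgf, Dnase1l3, Msr1, Mrc1, Cd55, Ehd3, Pla2r1, Hpgd and Slc9a9. Of these, Adam23, Fam124a, Cd55 and Ehd3 also set S1 apart from the other sinusoidal nuclei. Among the rest, the guidance receptor Plxnc1 was 28.4-fold lower (20.4 to 40.3) and the secreted nuclease Dnase1l3 21.7-fold lower (14.5 to 33.4).

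**Figure D5:**
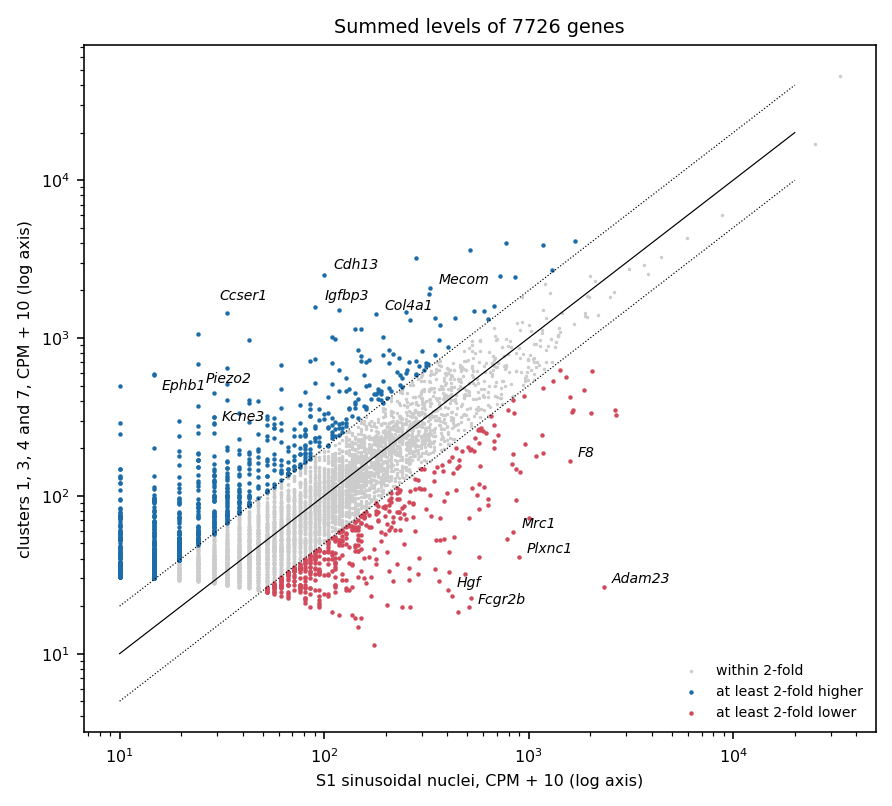
Each point is 1 of 7726 genes, with its summed level in S1 (x) and in clusters 1, 3, 4 and 7 (y) as CPM + 10 on log axes, the solid line marking equal levels and dotted lines 2-fold. Adam23, Fcgr2b and Mrc1 lie below the lower dotted line, and Ccser1, Cdh13 and Kcne3 above the upper one.

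Over the whole gate, fewer genes passed 2-fold. All 591 members against all 210 sinusoidal endothelial nuclei had 142 of 11709 genes (1.21%) at least 2-fold higher and 256 (2.19%) at least 2-fold lower. Of 14 compared sinusoidal genes outside the gate 12 were lower, and of 19 tip cell genes 1 was higher. Without clusters 2, 5, 6 and 8, against the same 210 nuclei, 280 genes were higher and 749 lower, and the log2 difference of Cdh13 was 2.68, against 1.72 with them. Kupffer markers were lower in 6 of 6 compared, with summed levels of 94.8 CPM in members and 491 CPM in the sinusoidal nuclei. Adam23 had 16.0 CPM in members and 692 CPM in sinusoidal nuclei, 43.4-fold lower (32.8 to 58.5), and Cdh13 had 1284 and 382 CPM, 3.36-fold higher (3.06 to 3.69). The genes with the highest ratios included Dkk2 at 60.7 and 2.95 CPM, 20.6-fold higher (7.91 to 76.3), and Sparcl1, a matrix glycoprotein, at 150.0 and 27.3 CPM, 5.49-fold higher (3.93 to 7.90). Synpr, Zfp804a, Lgr5 and Kcnq3 were also among the 15 highest, but their UMIs lay mostly in clusters 2, 5, 6 and 8: Synpr had 547 CPM in cluster 2 and 4.84 CPM in clusters 1, 3, 4 and 7, and Kcnq3 had 590.2 CPM in cluster 5 and 0.691 CPM in those 4.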

How the data were processed

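The deposited values are raw UMI counts per gene and barcode, not normalized, over 32285 genes and 95130408 UMIs. The authors made them with Cell Ranger 5.0 on mm10, per the submitters' processing notes, and no source used here says how the 2 samples were joined. The counts carry no sample name, no barcode occurs 2 times, and p-values were not computed. Free RNA was read from 49929 uncalled barcodes with 500 to under 850 UMIs.

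From the counts, nuclei were gated as stated, summed by group and expressed as CPM, UMIs per 1000000 UMIs of the group. A gene was compared where it had at least 30 UMIs in both groups together, as log2(CPM + 10), and called at 2-fold. Bracketed intervals are exact at 95% (Poisson for levels and ratios, Clopper-Pearson for shares) and cover counting error only. A group at 0 was set at a floor of 3 counts over the group, and an interval for a ratio against 1 to 3 counts is wide. Sums over 46 to 147 nuclei limit the precision for each cluster. Members were clustered on 2000 variable genes, 10 principal components and 15 neighbours by the Leiden method at resolution 0.5, with the gate and vessel list genes left out (Python 3.11.15, scanpy 1.11.5, leidenalg 0.10.2, numpy 2.4.6, scipy 1.17.1). Genes found in fewer than 5 members were left out of the clustering. A marker counted for a cluster at 20 CPM or more and at least 2-fold above the other members, with no minimum number of nuclei. Scrublet (threshold 0.227) called 323 of the 9632 barcodes doublets, and they were kept. For shares, each nucleus was thinned to 2000 UMIs.

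Genes were named by a rule: the 15 highest and 15 lowest log2 ratios of members to sinusoidal endothelial nuclei, the 15 highest to non-endothelial nuclei, the extremes and first genes of each list, and 5 leading genes per cluster. The 15 highest and 15 lowest against S1 were added, and other list genes, such as Kcne3, Cxcr4, Dll4, Hes1 and Tcf4, were named after their values were seen. A stellate cell marker that the list counts include is not reported here by itself. The members and lists were chosen with earlier results of these data known. The calculation was tested on simulated data with known changes.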

Additional observations from a re-analysis of the deposited data

How the results depend on the processing

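The gate held 591 nuclei, and 348 with a depth of at least 4000 UMIs, 293 with at most 1% mitochondrial UMIs, 902 with 2 or more gate UMIs, 72 without nuclei holding 2 or more UMIs of other cell types' markers and 343 in clusters 1, 3, 4 and 7. Of members against sinusoidal nuclei, 142 genes were higher, against 89 with sinusoidal nuclei taken at 1 UMI, 368 and 31 with a pseudocount of 1 and 50, 415 without nuclei with other markers, 827 for clusters 1, 3, 4 and 7 against S1 and 280 for these clusters against all sinusoidal nuclei. For the 256 lower genes the counts were 162 after thinning, 396 with free RNA subtracted, 520 and 60 with those pseudocounts, 155 with a filter of 100 UMIs, 158 without nuclei with other markers, and 458 and 749 in the same 2 cluster contrasts. Against non-endothelial nuclei, 1047 genes were higher, and 2019 and 419 with a pseudocount of 1 and 50. For clusters 1, 3, 4 and 7 against S1, 827 higher genes became 312 with a pseudocount of 50, 428 with a filter of 100 UMIs and 313 without nuclei with other markers, and 458 lower genes became 834 with free RNA subtracted, 191 with a pseudocount of 50, 841 with no filter, 177 with a filter of 100 UMIs and 109 without nuclei with other markers. That last setting left 54 and 9 nuclei and turned the log2 difference of Hes1 to -0.95 and of Jam2 to 0.86. The cause of these changes was not tested, beyond what fewer nuclei or genes and the pseudocount itself do. The tip cell median of 2.46 against S1 ranged from 1.47 to 3.03 over the alternatives that kept S1, and was 1.36 against all sinusoidal nuclei. The number of clusters was 8, and 6 to 11 under other settings. With 20 principal components, 191 nuclei lay in clusters where each held an endothelial UMI, and 171 of them were among the 343. Cluster contrasts were added after seeing the data. The 1000 UMI limit, the gate sum of 2 and the 1 UMI sinusoidal limit add nuclei without a cluster, so they were not run against S1. No paired analysis was possible because no barcode names its sample, so no replicate could be left out either.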

Other observations

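Among the sinusoidal endothelial nuclei, 2 clusters other than S1 carried genes of clusters 1 and 3. All these nuclei were chosen by Stab2, Lyve1 and Clec4g, so their levels of those genes follow from the gate. Cluster S3 (37 nuclei) had 1404 CPM of Stab2 and 122 CPM of Esm1 (80.6 to 178), 154 CPM of Pgf (107 to 215) and 462 CPM of Angpt2 (377 to 561). In cluster 1 of the nuclei without sinusoidal markers, the same 3 tip cell genes stood at 169.6, 179 and 527 CPM, and each interval overlapped that of S3. Cluster S5 (22 nuclei) had 851 CPM of Stab2, 328 CPM of Lyve1, 851 CPM of the guidance ligand Sema3a (678 to 1055) and 472 CPM of Igfbp5 (345 to 629). Cluster 3 had 426 CPM of Sema3a and 579.6 CPM of Igfbp5. The gate at 0 UMIs of Stab2, Lyve1 and Clec4g therefore placed nuclei with these genes on both sides.

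Ebf1, a transcription factor gene of B cells and of some stromal cells, had 393 CPM in clusters 1, 3, 4 and 7 and 23.5 CPM in S1, 16.7-fold higher (7.11 to 51.6). It stood at 373, 440.4, 580.0 and 19.2 CPM in clusters 1, 3, 4 and 7. The B cell genes Pax5, Cd79a and Ms4a1 had 1 UMI each in the 4 clusters. Abcc9, a potassium channel subunit of the pericyte list, had 382 CPM in the 4 clusters and 132 CPM in S1, 2.90-fold higher (1.99 to 4.41), and Kcnj8, the channel it pairs with, had 71 and 2 UMIs, 5.22-fold higher (1.39 to 43.9). The smooth muscle genes Myh11, Cnn1 and Myocd were at 0 UMIs in both.

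Gm29585 had 1312 UMIs in the members, of which 1276 lay in 1 nucleus of cluster 6 with 6311 UMIs in all and 0 UMIs of the 18 endothelial genes. Its level in the members thus rests on 1 nucleus, and whether its reads stem from this locus was not tested.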
